A study of Arabidopsis thaliana with 42 samples.

Results

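The subject is a run of neighbouring genes on chromosome 3 of Arabidopsis thaliana, from AT3G16320 (CDC27a) to AT3G19590 (BUB3.1), whose transcripts stood about 2-fold above wild type in a transgenic line called GR-REV. Members are the probe sets of the ATH1 array that the deposited table ties to exactly 1 locus between those locus numbers. There were 282 such probe sets, for 277 loci, among 22810 on the array. The stretch had been drawn from the difference between GR-REV and wild type before any treatment, at 0 min. Values of GR-REV at 0 min, and changes measured from them, are therefore given as a description, and no test of them is read as a result. The rise is tested at 30, 60 and 120 min, and the other tests concern a second transgenic line and wild type alone.

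Whole seedlings of the Columbia ecotype were taken at 7 days of age from liquid culture, each sample from its own flask. Wild type carries no transgene. The GR-REV line (35S::GR-REV) makes the transcription factor REVOLUTA (REV), of the class III homeodomain-leucine zipper family, joined to the hormone-binding domain of the glucocorticoid receptor (GR), and the KAN1-GR line (35S::KAN1-GR) makes the transcription factor KANADI1 joined to the same domain. Both are driven by the 35S promoter, which is active in most plant tissues. The labels name 1 line of each kind and do not say whether others were made. Dexamethasone (DEX), the steroid that releases such a fusion into the nucleus, was given to all 3 genotypes at 50 µM. GR-REV and wild-type replicates 1 to 3 were collected on day 1 at 0, 30, 60 and 120 min. KAN1-GR and wild-type replicates 4 to 6 were collected on day 2 at 0, 30 and 60 min. Each of the 14 groups held 3 arrays, and the number of arrays limits the precision.

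Most genes of a plant chromosome have their own promoter, and genes that lie side by side are usually not of 1 pathway. The stretch holds cell cycle genes, hormone signalling proteins, chromatin factors, chloroplast import proteins, calcium channels and housekeeping genes such as ACT2, the actin of vegetative tissue that many studies use as a reference. REV is best known for setting the upper side of leaves and patterning vascular tissue, and KANADI1 for the lower side of leaves. Neither gene lies in the stretch: REV is AT5G60690 and KANADI1 is AT5G16560. The arrays report RNA. DNA copy number was not measured, and the site of the transgene is not given in the sources used here.

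All values are log2 values relative to wild type at 0 min, so a difference of 1 is a 2-fold difference and absolute levels are not known. Of the 282 members, 221 probe sets (217 loci) had a p-value in the authors' deposited ANOVA table and were tested together with all other such probe sets, 16129 in all. A difference passed when limma's moderated test gave an adjusted p below 0.05 (Benjamini-Hochberg over the 16129). The criterion that left the other 61 members without a p-value is not given in the sources used here. If it depended on change between these arrays it would favour members that differ, so counts over the 221 do not stand for all 282.

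The transgenes were found where the labels place them. The GR-REV seedlings exceeded wild type in REV by 4.12 ± 0.068 (log2, SE, mean of 30, 60 and 120 min, 3 arrays a group at each time) and KANADI1 exceeded wild type in KAN1-GR by 9.02, 8.99 and 8.46 at 0, 30 and 60 min. These probe sets also detect the transgenes' own transcripts. A list of 6 root markers was lower in GR-REV, with a median difference of -0.71 at 30 min, -0.93 at 60 min and -1.1 at 120 min, and 2, 4 and 5 of the 6 passed. Its log2 values, summed over the list, ran from -13.4 to -7.65 on the 9 GR-REV arrays after DEX and from -7.45 to -2.15 on the wild-type arrays. Of 5 shoot markers, 3 were tested, and their median difference was -0.023, 0.073 and 0.011 at the same times with 0 of 3 passing. Fewer root cells and less RNA per root cell cannot be told apart in whole seedlings, whether any marker is at 0 cannot be read from centred values, and the part of this shift in the values of single members was not tested.

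Transcripts of the stretch stood at nearly the same height above wild type on every GR-REV array. The median over the 221 tested members, each minus the same-time wild-type mean, was 1.16, 1.13 and 1.13 on the 3 arrays at 0 min. It was 1.12, 1.20 and 1.16 at 30 min, 1.09, 1.05 and 1.07 at 60 min, and 1.11, 1.07 and 1.09 at 120 min. On the 12 wild-type arrays of day 1 it lay between -0.0597 and 0.128. Each of these arrays is part of the mean subtracted from it, which draws its value toward 0. The separation at 0 min is a description only, since those arrays drew the stretch. After DEX the lowest of the 9 GR-REV arrays, at 1.05, was above every wild-type array. The highest wild-type value belonged to replicate 2 at 120 min, whose median over the other tested probe sets was also raised, at 0.13. On the 9 KAN1-GR arrays it lay between -0.0367 and 0.0538.

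**Figure D1:**
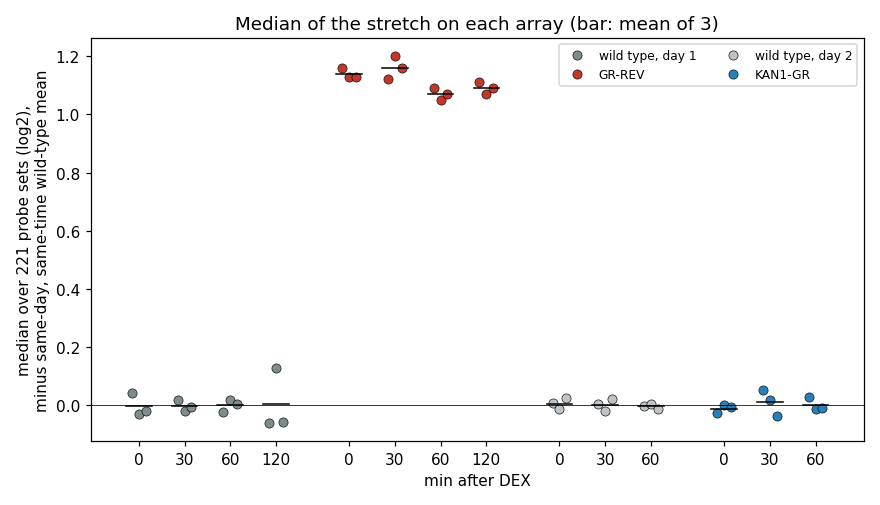
Median over the 221 tested members on each array (y axis, log2, minus the mean of wild type of the same day and time) against minutes after DEX (x axis), with 1 point per array and a bar at the mean of 3. The 12 GR-REV arrays sit between 1.05 and 1.20, and all wild-type and KAN1-GR arrays lie at or below 0.128.

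In the 9 arrays a side that had no part in drawing the stretch, 202 of 221 tested members (91.4%) were higher in GR-REV at 30 min, against 4.73% of all tested probe sets. At 60 min 188 members (85.1%) were higher, against 5.01%, and at 120 min 197 members (89.1%), against 5.08%. At all 3 times together 180 members were higher, beside 2.18% of all tested probe sets. No member passed as lower at any of these times, where 4.32%, 7.78% and 10.3% of all tested probe sets did. By limma at an unadjusted p below 0.05, 1 member was lower at each time, and the share of all tested probe sets at that threshold is not given. The median difference of the tested members was 1.17, 1.06 and 1.09 at the 3 times, which is 2.25-fold, 2.09-fold and 2.12-fold. The median over all tested probe sets was -0.0018, -0.00017 and -0.05. At 0 min, which drew the stretch, the median was 1.13. Over all 282 members, tested or not, the medians were 0.985, 1.04, 0.936 and 0.977 at 0, 30, 60 and 120 min.

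The individual arrays showed the same separation for most members. All 3 GR-REV arrays lay above all 3 wild-type arrays of the same time for 208 members at 30 min, where 13.7% of all tested probe sets did so. The count was 199 at 60 min (13.2%) and 206 at 120 min (11.3%), and 190 members met it at all 3 times (3.6%).

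The 61 untested members were nearly flat. Their mean difference over 30, 60 and 120 min had a median of -0.00367, and 50 of them lay within 0.1 of 0. They include IAA31, an auxin response repressor, IPT8, a cytokinin-synthesis enzyme, NAC057 and POK2, a kinesin of the division plane. Their values also varied little between replicates, with a median within-group SD of 0.0545 against 0.189 for the tested members. The only one above 0.5 was the second probe set of AT3G18930, at 0.588, whose tested probe set stood at 0.83.

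Among tested probe sets the rise ended at the named edges. At 0 min, the contrast that set the edges, CDC27a stood at 0.548 and its measured neighbour outside, AT3G16310, at -0.0933. At the other end BUB3.1 stood at 1.30, and AT3G19610, AT3G19620 and AT3G19630 outside it stood at -0.0586, -0.0144 and -0.0854. After DEX the means over the 3 times repeated this order: -0.199 for AT3G16310 and 0.138 for EMB2083 outside, then 0.58 for CDC27a, 1.70 for AT3G16330 and 0.92 for ABCG29 inside. The third locus outside, AT3G16280, was untested and stood at 0.0108. CDC27a is a subunit of the anaphase-promoting complex and ABCG29 a transporter of a lignin precursor. At the far end SCO3, named for a role in chloroplast development, stood at 1.39, the zinc-finger repressor AZF2 at 1.20 and BUB3.1, of the spindle checkpoint, at 1.31. Outside BUB3.1, AT3G19610 and AT3G19620 were untested and stood at -0.00765 and -0.00864. AT3G19630, the first tested, stood at -0.00438. Untested members inside the stretch were nearly flat too, so untested loci cannot place the edge. The 60 tested probe sets of 1 locus before the stretch had a median of -0.017 and the 60 after it -0.0038. By the mean over the 3 times 5 and 6 of them passed as higher, beside 10.5% of all tested probe sets.

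**Figure D2:**
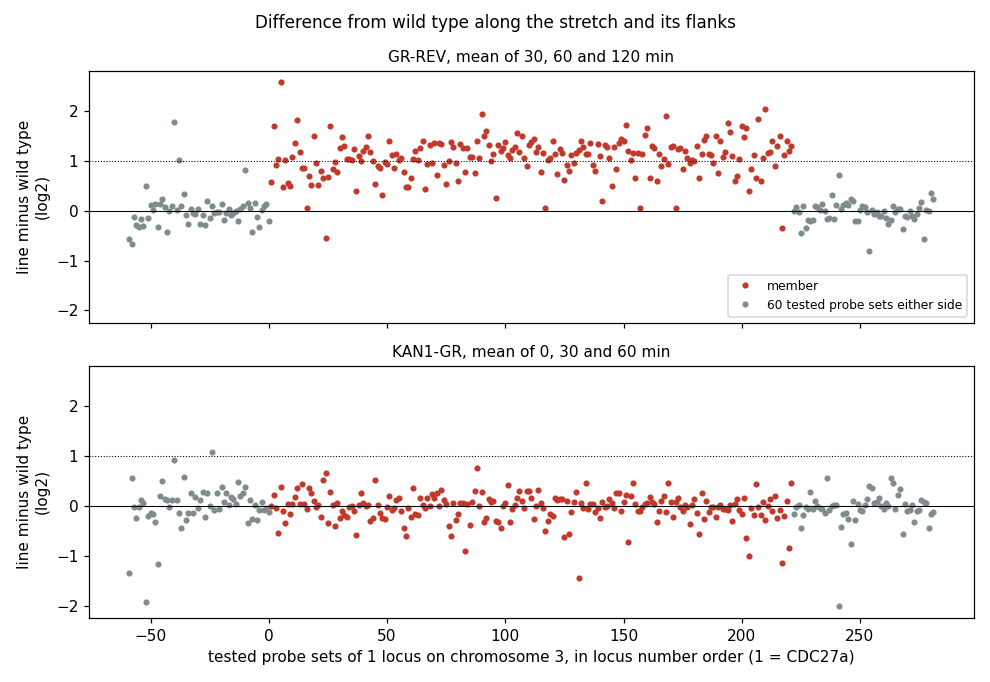
Difference from same-day wild type (y axis, log2) for each tested probe set of 1 locus in locus number order along chromosome 3 (x axis, order only), with members in red and 60 on either side in grey. Upper panel: GR-REV, mean of 30, 60 and 120 min, where members have a median of 1.11 and the flanks -0.017 and -0.0038. Lower panel: KAN1-GR, mean of 0, 30 and 60 min.

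The height of the rise was similar along the stretch. Split in locus order into 6 runs of 36 or 37 tested members, the medians of the mean difference were 0.955, 1.02, 1.23, 1.13, 1.15 and 1.16. The first run, AT3G16320 to AT3G16800, held 4 members below 0.5 and 4 above 1.5. The last, AT3G19120 to AT3G19590, held 2 below and 7 above.

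To say which genes follow the rise, each tested member's mean difference over 30, 60 and 120 min was set against a 2-fold change. A member was said to follow from 0.5 to 1.5 (1.41-fold to 2.83-fold), to be below under 0.5 and above over 1.5. The median was 1.11 (2.17-fold), with quartiles of 0.861 and 1.3, and the median SE was 0.0881. By this rule 185 of the 221 (83.7%) followed, 15 were below and 21 above. Of the 185, 88 had a 95% confidence interval that held 1, 30 had one wholly below 1 and 67 one wholly above 1. The mean itself passed as higher for 213 members (96.4%), beside 10.5% of all tested probe sets, and as lower for 0 (beside 17.1%), also at an unadjusted p below 0.05. Next to the lower bound lay AT3G17110 at 0.484 and AT3G18450 at 0.501. Next to the upper bound lay TOC120 at 1.497 and AT3G19540 at 1.501, so members on either side of a bound need not differ.

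**Figure D3:**
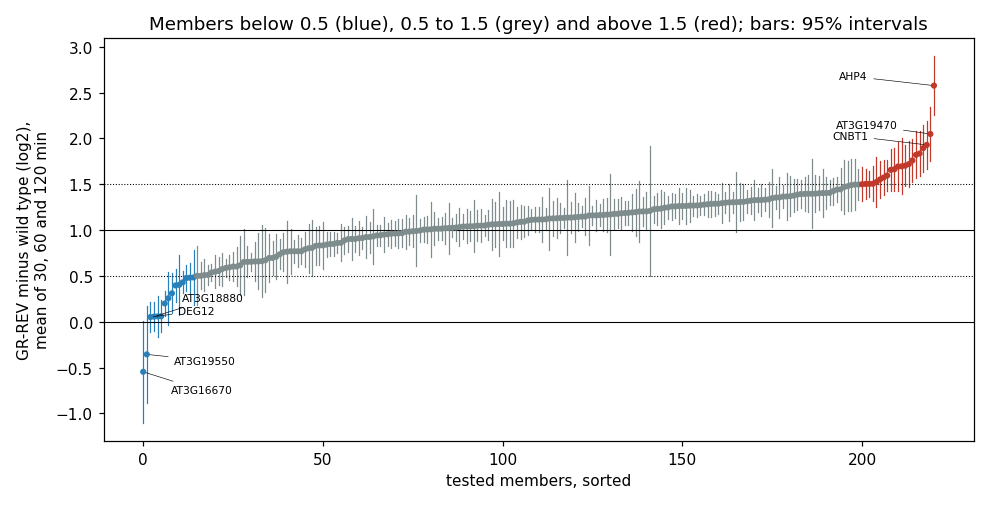
Mean difference between GR-REV and wild type over 30, 60 and 120 min (y axis, log2) of the 221 tested members in rising order (x axis), with 95% confidence intervals as vertical bars. Blue marks the 15 members below 0.5, grey the 185 from 0.5 to 1.5 and red the 21 above 1.5, from -0.55 for AT3G16670 to 2.58 for AHP4.

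The 4 members nearest the median show what following the rise looks like. UBC32, a ubiquitin-conjugating enzyme of endoplasmic reticulum quality control, had log2 values of 0.814, 0.587 and 0.666 in GR-REV at 30 min against -0.644, -0.345 and -0.473 in wild type. At 60 min they were 0.675, 0.868 and 0.879 against -0.429, -0.359 and -0.298, and at 120 min 0.855, 0.823 and 0.718 against -0.358, 0.0524 and -0.295. Every GR-REV array was above every wild-type array, and the mean difference was 1.11 ± 0.068 (SE, limma adjusted p = 9.89e-15). PREP1, the protease that clears targeting peptides in mitochondria and chloroplasts, ran from 1.26 to 1.49 (median 1.32) on the 9 GR-REV arrays and from 0.0527 to 0.401 (median 0.216) on the 9 wild-type arrays, again without overlap. PUT5, a polyamine transporter, and AT3G18210 had means of 1.12 and 1.11.

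ACT2 followed at the low end. Its log2 values were 0.248, 0.19 and 0.14 in GR-REV at 30 min against -0.346, -0.285 and -0.423 in wild type. They were 0.516, 0.491 and 0.463 against -0.17, -0.0836 and -0.0425 at 60 min, and 0.455, 0.456 and 0.374 against -0.246, -0.134 and -0.223 at 120 min. The groups did not overlap and the mean difference was 0.59 ± 0.046 (limma adjusted p = 4.91e-12), a 1.5-fold rise, with a 95% interval of 0.49 to 0.68. The translationally controlled tumour protein gene TCTP (0.51, SE 0.053) and MTO3, an S-adenosylmethionine synthetase gene (0.54, SE 0.046), were similarly low.

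The 21 members above 1.5 were led by AHP4, a histidine phosphotransfer protein of the cytokinin relay. On the 9 GR-REV arrays it ran from 1.96 to 4.63 (median 3.53) and on the 9 wild-type arrays from 0.768 to 0.945 (median 0.838), with a mean difference of 2.58 ± 0.16 (limma adjusted p = 1.06e-14), 5.97-fold. AT3G19470 followed at 2.05, with 0.955 to 1.83 in GR-REV and -1.22 to 0.0638 in wild type. CNGC20 (labelled CNBT1 in the annotation), a cyclic nucleotide-gated calcium channel of plant immunity, stood at 1.93. It ran from 1.55 to 2.65 in GR-REV and from -0.127 to 0.647 in wild type. None of these overlapped between the lines.

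Next were the sugar and polyol transporter PMT5 at 1.89 ± 0.13, AT3G19440 at 1.84 ± 0.12 and the calmodulin-binding protein IQD26 at 1.82 ± 0.13. The abscisic acid (ABA) hydroxylase CYP707A4, which inactivates that hormone, stood at 1.76 ± 0.11. The fucosyltransferase FUT11 was at 1.57, the ubiquitin ligases PUB25 and PUB29 both at 1.66, and MKS1, a partner of a defence kinase, at 1.52. The median residual SD was 0.252 in the 21 members above, 0.182 in the 185 that followed and 0.191 in the 15 below. Their median absolute wild-type change after DEX was 0.253, 0.173 and 0.154.

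The 15 members below 0.5 comprised some near 0 and some partly raised. AT3G16670 was the lowest, at -0.55 ± 0.27 (limma adjusted p = 0.143), and its replicates varied widely. Its GR-REV values were -0.6, 0.0887 and -1.33 at 30 min, 0.952, 0.1 and 0.729 at 60 min and -0.437, -0.354 and 0.949 at 120 min. In wild type they were 1.16, 0.429 and 0.257, then 0.061, 0.594 and 0.182, then 1.55, 0.925 and -0.14, so the groups overlapped at 60 and 120 min. At 0 min its difference was -1.65. AT3G19550, at -0.36 ± 0.26 (limma adjusted p = 0.352), had GR-REV values from -1.19 to 0.941 and wild-type values from -0.849 to 1.02. Its value averages differences of opposite sign, 0.65, -1.29 and -0.429 at 30, 60 and 120 min, none past the threshold. At 60 min its GR-REV values of -0.415, -1.14 and -0.458 lay below the wild-type values of 1.02, 0.718 and 0.119.

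A further 4 lay near 0 with narrow intervals. DEG12, a gene of the Deg protease family, had 0.05 (95% interval -0.11 to 0.21), AT3G18880 had 0.06 (-0.11 to 0.22) and AT3G18050 had 0.06 (-0.17 to 0.29). The value of AT3G18050 averages differences of opposite sign, 0.53, 0.15 and -0.50 at 30, 60 and 120 min, none past the threshold. PGSIP1 (GUX1), which adds glucuronic acid to xylan in the secondary cell wall, had 0.06 (-0.12 to 0.23). Its 9 GR-REV values ran from -0.0562 to 0.243 and its wild-type values from -0.157 to 0.255, an almost complete overlap. The chitinase-like cell wall protein CTL2 stood at 0.31 ± 0.11 and the phosphate-starvation phosphatase PAP17 at 0.26 ± 0.14. AT3G16800 stood at 0.40 ± 0.089, with all 9 GR-REV values, 0.0593 to 0.252, above all 9 wild-type values, -0.521 to -0.0273.

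In all, 13 tested members passed at none of the 3 times. They are DEG12, AT3G16670, CTL2, AT3G17640, PAP17, AT3G18050, AT3G18170, AT3G18450, PGSIP1, AT3G18880, AT3G19390, AT3G19550 and SWEET16, a vacuolar sugar transporter. A further 9 passed at 1 time and 19 at 2. By their means over the 3 times AT3G17640 (0.765), AT3G18170 (0.617), AT3G18450 (0.501) and SWEET16 (0.672) followed the rise. The others of the 13 lay below 0.5. AT3G17640, AT3G18170, AT3G18450 and SWEET16 were named after their values were seen.

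Members of every role list were raised. The 11 role lists, chosen from textbook functions with earlier results of these data known, hold 102 tested loci, and no member of any list passed as lower at 30, 60 or 120 min. The lists overlap, with 145 entries for 132 loci. The shares below are to be read beside the 4.73%, 5.01% and 5.08% of all tested probe sets higher at those times and beside the tested members as a whole.

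Of 7 probe sets for cell division and genome maintenance, 5 were higher at 30 min and all 7 at 60 and at 120 min, with a median mean difference of 0.955. They include CDC27a at 0.58, KINESIN-13A at 0.95, POK1, a kinesin that marks the division plane, at 1.35 and BUB3.1 at 1.31.

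Hormone genes were higher in 12, 10 and 10 of 12 probe sets, with a median of 1.08. ARR1 (listed as RR1), a transcription factor of cytokinin response, has 2 probe sets, at 1.504 ± 0.080 and 1.17 ± 0.22. The 9 GR-REV values of the first ran from 0.937 to 1.3 and those of wild type from -0.632 to 0.229. The auxin response repressor IAA26 (listed as PAP1) stood at 1.18 ± 0.080, with 0.702 to 1.48 in GR-REV and -0.254 to 0.311 in wild type. The ethylene-response factor ERF72 (listed as EBP), the jasmonate repressor JAZ3, the ABA-response factor ABF4 and ETP1, an F-box protein that targets an ethylene signal transducer, lay between 0.965 and 1.09. RALF23, a secreted peptide of growth and immunity, was raised by 0.51 and CIPK1, a calcium-sensor-dependent kinase, by 0.77.

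Among 15 transcription and chromatin probe sets, 15, 12 and 14 were higher at the 3 times, with a median of 1.04. The histone deacetylase HDA15 stood at 1.41, the homeodomain protein HAT3.1 at 1.40, SHH2 at 1.33, the DNA methyltransferase relative DRM3 at 1.33 and the vernalization gene VRN1 at 1.02. NAC058, a NAC transcription factor, was the 1 member of the list below 0.5, at 0.20. GATA17, a GATA factor, stood at 0.55.

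All 11 probe sets for chloroplast import, division and photosynthesis were higher at each time, with a median of 1.18 and a range of 0.904 to 1.5. They include the outer-envelope import proteins TOC120 (1.497) and TOC64-III (1.45 and 1.18 for its 2 probe sets), the inner-envelope protein Tic62 (1.23), SCO2 (1.41), the plastid dihydrolipoamide dehydrogenase LPD1 (0.94) and the sodium-proton exchanger NHD1 (1.19). All 11 probe sets for ribosome and translation were also higher at each time, with a median of 1.04. Among them were RPL3P, a ribosomal protein L3 gene (1.33), the Pumilio protein PUM24 (1.105), EMB2786 (0.94) and AT3G18740 (0.65).

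The 8 cytoskeleton and vesicle traffic probe sets were all higher at each time, with a median of 1.03. ACT2 was the lowest of them, and none lay above 1.5. The Golgi protein CASP stood at 1.29, PLDP1, a phospholipase D gene, at 1.02 and 1.24, AT3G18060 at 1.01 and RAB7B at 1.03.

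Stress and defence genes were higher in 13, 10 and 12 of 13 probe sets, with a median of 1.04, and 4 of them lay above 1.5. Those were CNGC20, PUB25, PUB29 and MKS1. HS1, a small antimicrobial protein, stood at 1.02 and AT3G17020 at 0.86. Of 8 transporter and channel probe sets, 7, 6 and 6 were higher, with a median of 1.09, and CNGC20 and PMT5 lay above 1.5. The vacuolar anion channel ALMT9 stood at 1.07.

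Primary and cell wall metabolism held the largest number of low members among the 11 lists. Of its 17 probe sets 14 were higher at each time, the median was 0.931, and 4 lay below 0.5: PGSIP1, PAP17, CTL2 and AT3G16370 (0.48). The cytosolic glutamine synthetase GLN1.3 and the mitochondrial dihydrolipoamide dehydrogenase mtLPD2 both stood at 1.26 and AT3G16850 at 1.27. Of 11 proteolysis and ubiquitin probe sets, 10, 9 and 10 were higher, with a median of 1.11. PUB25 and PUB29 lay above 1.5 and AT3G19390, at 0.40 ± 0.16 (limma adjusted p = 0.06), below 0.5. AT3G16740 stood at 1.26.

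The jacalin lectin cluster is a group of neighbouring genes for carbohydrate-binding and myrosinase-associated proteins of glucosinolate defence. Its 4 one-locus probe sets were higher at each time, with MLP-300B at 1.01, JAL33 at 0.55, JAL34 at 0.50 and JR1 at 1.07. Its other loci share probe sets that match several genes at once and are not members. A probe set for AT3G16390, AT3G16400 and AT3G16410 stood at 0.52 ± 0.076, and one for AT3G16420 and AT3G16430 at 0.39 ± 0.059.

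**Figure D4:**
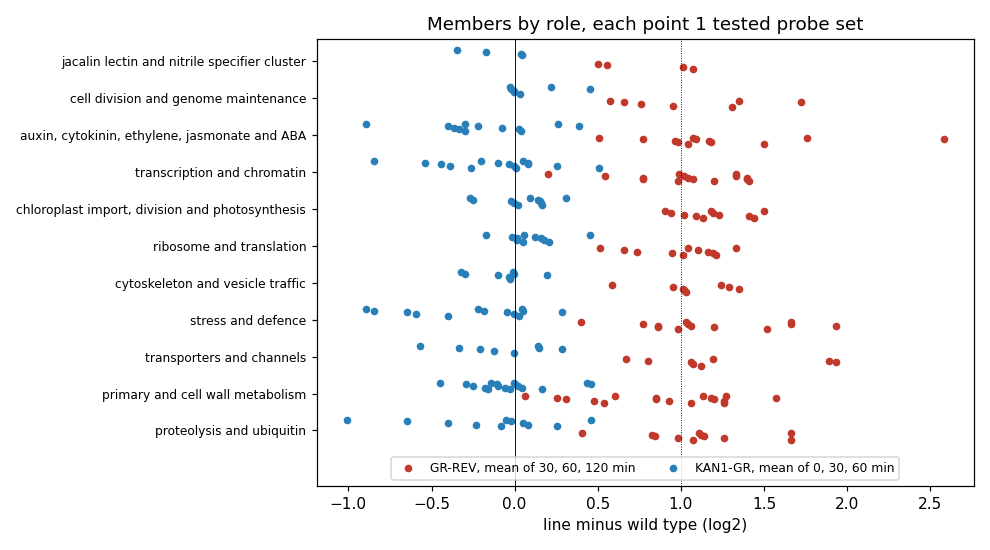
Difference from same-day wild type (x axis, log2) for each tested probe set of the 11 role lists (y axis), with GR-REV (mean of 30, 60 and 120 min) in red and KAN1-GR (mean of 0, 30 and 60 min) in blue. List medians in GR-REV run from 0.781 for the jacalin cluster to 1.18 for chloroplast import, and in KAN1-GR from -0.26 to 0.094.

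Altogether 16 probe sets matched several loci with at least 1 in the stretch, and 14 of them were tested. Where the other locus lies elsewhere, the signal mixes the stretch with genes outside it. A probe set for AT3G18140 and AT2G22040 stood at 1.25 ± 0.079, one for AT3G17650 and AT5G45450 at 0.93 ± 0.081 and one for AT3G18530 and AT3G01450 at -0.00136 ± 0.097. Some probe sets whose loci all lie in the stretch were also low. One for AT3G17720 and AT3G17760 stood at 0.0093 ± 0.097 (limma adjusted p = 0.963), and both for AT3G17998 and AT3G18000 passed at 0.425 and 0.351, below the 0.5 used above. Within the stretch, 4 loci had a pair of tested one-locus probe sets. Their means were 1.23 and 1.29 for TDX, 1.45 and 1.18 for TOC64-III, 1.02 and 1.24 for PLDP1 and 1.504 and 1.17 for ARR1.

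There were 7 members that changed their distance from wild type between 30, 60 and 120 min by limma's F test, 3.17% of those tested beside 1.84% of all tested probe sets. At an unadjusted p below 0.05 there were 30. The share of all tested probe sets at that threshold is not given, so nothing is read from this count. AT3G19200 lost its rise at 60 min. Its GR-REV values were 2.79, 2.11 and 1.44 at 30 min, -0.374, 0.707 and 0.0466 at 60 min and 1.94, 1.97 and 1.86 at 120 min, while no wild-type value left the range -0.293 to 0.181. The differences were 2.23, 0.21 and 2.03 (F test adjusted p = 0.000595).

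CNGC19, the neighbour and close relative of CNGC20, behaved similarly at 60 min. Its GR-REV values were 2.38, 2.69 and 1.4 at 30 min, 0.243, 0.358 and -0.00768 at 60 min and 0.671, 0.775 and 1.19 at 120 min, against -0.192 to 0.342 in wild type. The differences were 1.996, 0.24 and 0.95 (F test adjusted p = 0.0061). CNGC20 stayed at 1.88, 2.27 and 1.64, with no change over time that passed (F test adjusted p = 0.644).

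AHP4 climbed. Its values were 1.96, 3.53 and 2.29 at 30 min, 3.22, 3.01 and 3.86 at 60 min and 4.23, 4.15 and 4.63 at 120 min, and no wild-type value at these times exceeded 0.945. The difference went from 1.70 to 2.51 to 3.52 (F test adjusted p = 0.0198). AT3G16850 also climbed, from 0.99 to 1.30 to 1.52 (F test adjusted p = 0.0467).

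The other 3 ended lower than they began. AT3G18310 went from 1.52 and 1.64 to 0.90 (F test adjusted p = 0.00808), with GR-REV values of 1.12, 0.798 and 1.32 at 120 min against 0.0466, 0.309 and 0.18. The glycosyltransferase UGT88A1 went from 1.20 to 0.90 to 0.44 (F test adjusted p = 0.0176), with values of 0.655, 0.653 and 0.497 against 0.289, 0.207 and -0.0249 at 120 min. AT3G16940 went from 1.41 to 0.94 to 0.61 (F test adjusted p = 0.0294). After quantile normalisation between arrays AT3G19200 was the 1 member left, with an adjusted p of 0.00737 in the F test.

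**Figure D5:**
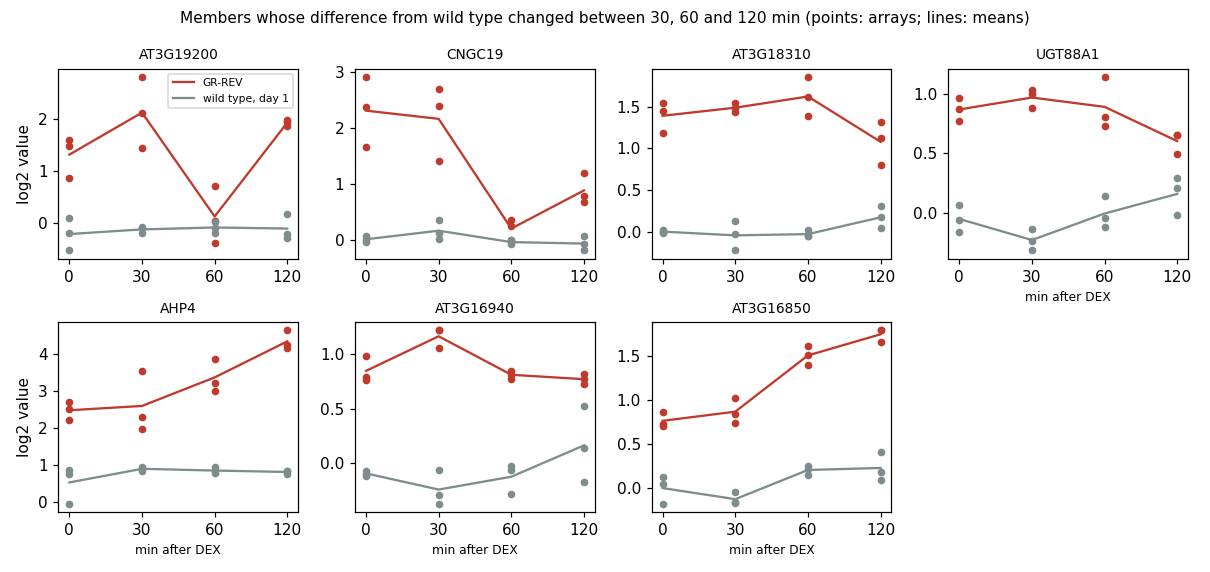
Log2 values (y axis, relative to wild type at 0 min; scales differ between panels) against minutes after DEX (x axis, evenly spaced) for the 7 members whose difference from wild type changed between 30, 60 and 120 min. Points are arrays, 3 a group, and lines join group means of GR-REV (red) and day 1 wild type (grey). AT3G19200 and CNGC19 drop to differences of 0.21 and 0.24 at 60 min, and AHP4 climbs to 3.52 at 120 min.

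Some members stood at another height at 0 min than after DEX. Since the 0 min arrays drew the stretch, the following values are a description with no test. All genes named for it but GATA17 were picked because this change had an adjusted p below 0.05 by limma. That fit uses the same 0 min arrays, so the picking is no evidence of a response. The median over the tested members of the later difference less that at 0 min was 0.0191, -0.0476 and -0.00759 at 30, 60 and 120 min.

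PUB29 stood nearer to wild type at 0 min than later. At 0 min its GR-REV values were 0.156, 0.179 and 0.718 against -0.113, 0.147 and -0.0172 in wild type, a difference of 0.35. At 30 min they were 1.49, 1.64 and 1.61 against 0.218, -0.107 and -0.0457. All 3 GR-REV arrays were above wild type at both times. The difference of AT3G17950 was 0.44 at 0 min and 1.43 and 1.48 at 60 and 120 min.

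NAC058 stood higher at 0 min than later. Its GR-REV values were 1.44, 1.62 and 1.43 at 0 min, 0.564, 0.193 and 0.52 at 30 min and 0.108, 0.0141 and 0.00785 at 60 min, and at 120 min they were -0.0151, -0.00287 and 0.034. No wild-type array of day 1 passed 0.142 or fell under -0.361. CYP707A4 had GR-REV values of 2.99, 3.75 and 2.83 at 0 min and of 1.75, 1.65 and 1.6 at 120 min, when it was 1.54 above wild type. AT3G17110 had differences of 2.06 at 0 min and 0.29 and 0.12 at 60 and 120 min. ATL2, an elicitor-responsive ubiquitin ligase, had 1.86 at 0 min and 0.81 at 30 min. PAP17 had 1.29 at 0 min and -0.16 at 120 min, and GATA17 had 1.30 at 0 min and 0.33 at 60 min.

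In wild type itself the median change of the tested members from 0 min on day 1 was -0.0159, 0.0274 and 0.0368 at 30, 60 and 120 min. The 0 min wild-type arrays also had a part in drawing the stretch, so nothing is read from the counts against them. They were 4 higher and 8 lower at 30 min (4.79% and 5.13% of all tested probe sets), 6 higher and 0 lower at 60 min (2.77% and 1.36%), and 3 higher and 1 lower at 120 min (3.82% and 1.31%). At 60 min 15 were lower by limma at an unadjusted p below 0.05.

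The same genes had a median close to wild type in KAN1-GR. The median difference of the tested members from day 2 wild type was -0.0279, 0.00752 and -0.0113 at 0, 30 and 60 min. At 0 min 10 were higher and 11 lower, beside 4.94% and 5.78% of all tested probe sets, and these are 4.52% and 4.98% of the members. At 30 min 3 were higher and 16 lower, 1.36% and 7.24% beside 6.12% and 7.93%. At 60 min 10 were higher and 25 lower, 4.52% and 11.3% beside 8.38% and 9.59%. Over the 3 times 51 members passed at least once, 19 higher (8.6%) and 32 lower (14.5%), beside 13.9% and 15.2% of all tested probe sets, and 6 passed at every time, 2.71% of the members beside 2.8%. Without wild-type replicate 6 at 0 min, the count at 0 min was 2 in place of 21.

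Those 6 include ACT2, which was lower at every time. Its values at 30 min were -0.444, -0.474 and -0.403 in KAN1-GR against -0.115, -0.214 and -0.0643 in wild type, with no overlap. The difference was -0.31 at 0 and at 30 min and -0.35 at 60 min (limma adjusted p = 0.0124, 0.00798 and 0.00159). The others were CIPK1, AT3G17410, AT3G19030 and AT3G19390, all lower, and GATA17, which was higher by 0.47, 0.63 and 0.43. AT3G17410 and AT3G19030 were named after their values were seen. The differences of CIPK1 were -0.69, -1.15 and -0.86, but its difference at 60 min came to -0.0419 after quantile normalisation.

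Other members that were lower in KAN1-GR include AT3G16800, with values of -1.21, -0.919 and -0.755 at 30 min against -0.0452, -0.0675 and 0.29 in wild type (-1.02, limma adjusted p = 1.34e-05). AT3G18050 was at -1.54, -1.93 and -1.14 at 60 min against -0.228, -0.344 and -0.337 (-1.23, limma adjusted p = 1.16e-05). The protein kinase gene GPK1 stood at -0.84 at 30 min and -0.70 at 60 min. UGT88A1 was higher, by 0.42 and 0.71 at 30 and 60 min, and RALF23 by 0.68 at 60 min. AT3G16560 was higher by 0.77 and 0.75 at 30 and 60 min, but at 0 min its difference was -0.45 (limma adjusted p = 0.0599), with all 3 KAN1-GR arrays below wild type. At 60 min IQD26 was higher by 0.78 and the lipid acyltransferase LPAT5 by 0.89. At 0 min AT3G19550 stood at -1.89 and AZF2 at -0.996, and AT3G17680 was higher by 1.30, AT3G16660 by 0.91 and the nucleolin gene NUC-L2 by 0.84. These calls at 0 min use wild-type replicate 6, without which only 2 members passed, and which of them depend on it is not given. For AT3G17680 that array read -1.62, beside -0.283 and -0.299 in replicates 4 and 5. For NUC-L2 it read -0.902, beside -0.294 and -0.551, and for AT3G16660 -0.257, beside -0.227 and -0.19.

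Among the role lists in KAN1-GR, hormone genes had the lowest median of the mean over 0, 30 and 60 min, -0.26, with 0, 0 and 1 of 12 higher and 2, 3 and 3 lower at 0, 30 and 60 min. Stress and defence genes had a median of -0.19, with none of 13 higher and 2, 4 and 5 lower. The hormone and stress lists share CIPK1, ATL2 and ERF72, with means of -0.897, -0.403 and -0.218, so their values are partly the same. Of all tested probe sets, 4.94%, 6.12% and 8.38% were higher and 5.78%, 7.93% and 9.59% lower at 0, 30 and 60 min. Ribosome and translation genes had 0.058 with 1 of 11 higher at 0 min and none passing at 30 or 60 min. The root marker list was also lower in KAN1-GR, with medians of -0.27, -0.84 and -0.59 and 1, 3 and 1 of 6 passing, and its part in these values was not tested. Of the highest members in GR-REV, AHP4 had 0.70, 0.25 and 0.21 in KAN1-GR at 0, 30 and 60 min, CNGC20 0.36, -0.11 and 0.60, and PMT5 -0.25, -0.23 and 0.11, none past the threshold, while IQD26 passed at 60 min.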

How the data were processed

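RNA of 42 samples was measured on ATH1 arrays. Replicates were separate flasks of seedlings, per the labels, and the 14 groups follow line, time and collection day, with 3 arrays each. The authors' deposited log2 values come from GCRMA, per the submitters' processing notes, which name no version. Base 2 was assumed, as GCRMA gives it. Values of a probe set have a median of 0 over the 6 untreated wild-type arrays, as the table itself shows. A second deposited table gives each probe set's locus and p-values of the authors' ANOVA, a unit other than expression. Probe sets with such a p-value, less 35 controls, were tested.

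A mean per group was fitted with limma 3.58.1 (R 4.3.3) to all 42 arrays (28 residual and 3.92 prior degrees of freedom), two-sided, with Benjamini-Hochberg adjustment. The fit was tested on simulated data. DEX responses in GR-REV were fitted too. Their adjusted p below 0.05 served to choose genes to name, and their counts appear only among the alternatives. Nothing is read from either, since they use the 0 min values that drew the stretch. The median SE of a difference at 1 time was 0.153. Replicate numbers 1 to 3 are shared by GR-REV and day 1 wild type but name separate flasks, and were not taken to pair samples. Gene symbols come from RefSeq, which held 276 of the 277 loci.

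The members, role lists and rules were chosen with earlier results of these data known. Named genes were the 3 outermost members and 3 nearest outside loci at each edge, the 8 highest, 8 lowest and 4 nearest the median, those changing over time, up to 5 per direction of each KAN1-GR comparison and up to 4 of each DEX response, up to 4 of each role list with its members outside 0.5 to 1.5, and ACT2, ARR1, IAA26, REV and KAN1. Other genes named are examples chosen after their values were seen. BRC1 was not analysed here. One gene that the rule names is not reported here. Root markers were PIP2;4, EXP7, COBL9, TIP2;3, PER64 and CASP1, and shoot markers RBCS1A, LHCB1.1, LHCA1, PSBO1 and PSAD2. Alternatives tried were quantile normalisation, centring each array on its median, no filter, other priors, array weights, a replicate block, arrays of 1 day, probe sets without a cross-hybridisation suffix, and leaving out each array. A planned search of promoters for motifs was not run.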

Additional observations from a re-analysis of the deposited data

Results flagged for a closer look

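For 7 members the difference between GR-REV and wild type itself differed between 30, 60 and 120 min by limma's F test, with Benjamini-Hochberg adjustment over all tested probe sets. The adjusted p was 0.000595 for AT3G19200, 0.0061 for CNGC19, 0.00808 for AT3G18310, 0.0176 for UGT88A1, 0.0198 for AHP4, 0.0294 for AT3G16940 and 0.0467 for AT3G16850. AT3G19200 and CNGC19 passed without each of the 18 arrays in turn, with adjusted p up to 0.0045 and 0.0276. AT3G18310 missed the threshold without GR-REV replicate 2 at 120 min, at 0.0585. AHP4 passed in 15 of the 18 fits, with adjusted p up to 0.0718, and missed it without GR-REV replicate 1 or 3 at 30 min or replicate 3 at 120 min. UGT88A1 passed in 14, AT3G16940 in 11 and AT3G16850 in 4 of them. With arrays of the same day alone, AT3G19200 and UGT88A1 still passed and the others of the 7, CNGC19 among them, did not. After quantile normalisation CNGC19 missed the threshold too, with an F test adjusted p of 0.0613.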

How the results depend on the processing

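The counts of members higher in GR-REV stayed within 1.5 times the values given under all alternatives run. Quantile normalisation, which rescales differences from centred values, gave a median of 0.809 at 0 min and 0.859 over the later times, 1 member changing over time in place of 7, 0, 5 and 4 DEX responses (difference less that at 0 min) at 30, 60 and 120 min, 50 members called in KAN1-GR at 0 min and 29 wild-type changes, and turned AT3G18050 from 0.06 to -0.0985. Testing all probe sets gave medians of 0.985 and 1.01, since the flat untested members then count. Array weights gave 15 members changing over time, 56 and 75 called in KAN1-GR at 0 and 30 min and 38 wild-type changes. Arrays of the same day alone gave 3 changing over time and 6 responses at 120 min. The main fit gave 4, 11 and 11 DEX responses at 30, 60 and 120 min. Its KAN1-GR calls were 21, 19 and 35 at 0, 30 and 60 min, and its wild-type changes 19. Shares of all tested probe sets under each alternative are not given. The counts over time, in KAN1-GR and in wild type are therefore not read as results about the stretch. The cause of these shifts was not tested, except where stated. Leaving out 1 array at a time, the median at 0 min ran from 1.08 to 1.15 and that of the later times from 1.1 to 1.13, and members higher were 192 to 195, 178 to 183 and 193 to 197. Counts of DEX responses use the 0 min arrays that drew the stretch, and nothing is read from them. Members that follow were 182 to 186, those changing over time 4 to 11, DEX responses 2 to 6, 7 to 15 and 7 to 16, KAN1-GR calls 2 to 17, 11 to 23 and 18 to 33, the KAN1-GR median -0.0152 to 0.00711, and wild-type changes 11 to 27. Of 2349 values of the mean difference over 30, 60 and 120 min of 87 named members under the alternatives, which cover neither the tests of change over time nor KAN1-GR, 2325 kept direction and side of the threshold, 15 lost the call, 8 gained it and 1 reversed. With the replicate block the members higher were 203, 187 and 197, those changing over time 6, and responses 4, 11 and 13. Same-numbered samples of the lines did not deviate together: correlations ran from -0.31 to 0.17, with 1 of 12 above 0.1. For KAN1-GR no paired analysis was possible because its replicates (1 to 3) and those of day 2 wild type (4 to 6) share no numbers. Without levels, signal over background cannot be given.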
